A study of Mus musculus with 2 samples.

Results

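Interferon-stimulated genes are the set of genes that cells switch on when an interferon reaches its receptor. The set described here was given as a list of 41 gene symbols, and 41 of the 41 had rows in both count tables, out of 18309 gene rows in either table. Gene expression had been measured by Drop-seq, which tags the polyadenylated RNA of single cells in droplets, in 2 libraries of mouse small-intestinal fibroblasts grown together with intestinal crypts (C57BL6 mice, 10 weeks old, Organoid Growth Media). EP4, the product of Ptger4, is one of the receptors through which cells sense prostaglandin E2. The Ptger4-ON library came from co-cultures given the DMSO vehicle, which grew as spheroids. The Ptger4-OFF library came from co-cultures given the EP4 antagonist ONO-AE3-208 in DMSO at 10 µM every second day, which grew as budding organoids. Each library was 1 pool of 6 co-cultures, so the culture-to-culture error is unknown, no test between conditions was possible, and every interval below is a 95% interval of counting error only. The label Ptger4-OFF stands for a drug and not for a deletion of the gene, and no mutant allele is named in the labels.

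Type I interferons signal through Ifnar1 and Ifnar2, and type III interferons, which act mainly on epithelium in the gut, through Ifnlr1 and Il10rb. The kinases Jak1 and Tyk2 then activate STAT proteins, and Stat2 and Irf9 are parts of the complex ISGF3 that binds the interferon-stimulated response element (ISRE). Type II interferon acts through Ifngr1 and Ifngr2 and the gamma-activated site (GAS), and induces in particular the interferon-inducible GTPases. Many of these genes are also read at a low level without added interferon.

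The promoters show what many of the 41 genes have in common at the level of sequence. Among the 32 members with an entry in the RefSeq promoter table (GRCm38.p6; 250 bases before to 50 after the start of the gene), 18 held the ISRE core GAAANNGAAA on either strand, a share of 56.2%, against 3.99% of 27025 genes. The GAS motif TTCNNNGAA, which reads the same on both strands, was found in 10 of the 32 members (31.2%) and in 9.55% of genes. By group, the ISRE core was present in 6 of 6 matched GTPase genes, 3 of 3 RNA sensors and 3 of 3 membrane genes. It was present in 3 of 6 IFIT and OAS genes and 1 of 4 STAT and IRF genes. Of the ISG15, ubiquitin and PARP genes 1 of 4 held it, and of the other genes 1 of 6. A match is a run of letters and not a measured binding site, and no binding was measured here. The windows below are those of 6 genes whose level in fibroblasts was higher in Ptger4-OFF, and of Irgm2, a close copy of Igtp. Windows were drawn only for genes with a match. Irf7, Ifit2, Oasl2, Ifi35, Xaf1 and Samd9l were also higher in Ptger4-OFF fibroblasts and had an entry without the core. Capitals mark the ISRE core or its reverse complement TTTCNNTTTC, and the sequences are those of the gene's strand, 5′ to 3′, ending at or before the start of the gene.
Ifit1, chr19:34640745-34640853, plus strand: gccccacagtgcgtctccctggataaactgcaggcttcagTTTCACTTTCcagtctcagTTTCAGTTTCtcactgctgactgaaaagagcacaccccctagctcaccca
Ifit3, chr19:34583333-34583456, plus strand: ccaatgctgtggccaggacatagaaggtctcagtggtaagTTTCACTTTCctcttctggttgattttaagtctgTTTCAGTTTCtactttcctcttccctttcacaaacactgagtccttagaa
Rsad2, chr12:26456523-26456612, minus strand: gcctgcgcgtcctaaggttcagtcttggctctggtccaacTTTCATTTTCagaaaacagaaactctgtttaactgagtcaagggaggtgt
Isg15, chr4:156200835-156200936, minus strand: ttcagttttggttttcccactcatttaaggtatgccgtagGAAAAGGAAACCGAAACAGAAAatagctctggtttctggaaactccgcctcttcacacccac
Igtp, chr11:58199482-58199555, plus strand: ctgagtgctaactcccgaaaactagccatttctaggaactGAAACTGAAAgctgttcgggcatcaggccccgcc
Irgm2, chr11:58214873-58214962, plus strand: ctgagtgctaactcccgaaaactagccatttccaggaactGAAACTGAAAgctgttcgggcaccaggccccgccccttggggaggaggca
Gbp7, chr3:142530243-142530332, plus strand: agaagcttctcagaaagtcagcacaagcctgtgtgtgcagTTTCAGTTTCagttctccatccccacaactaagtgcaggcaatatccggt
In these windows Ifit1 and Ifit3 carry 2 matches each and Isg15 carries 3 that overlap, while Rsad2, Igtp, Irgm2 and Gbp7 carry 1. The first match begins 104 bases before the start of Ifit1, 156 before Ifit3, 120 before Rsad2, 78 before Isg15, 34 before Igtp, 64 before Irgm2 and 53 before Gbp7. The Igtp and Irgm2 windows are nearly the same, and the annotated genes overlap on the same strand, so counts could be split between them in ways the tables do not show.

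Cells were sorted into 2 classes by the rule that came with the list. A cell with more UMIs (unique molecular identifiers, counts of tagged molecules) of Col1a1, Col1a2 and Col3a1 than of Epcam, Krt8 and Krt18 was a fibroblast, and the reverse was an epithelial cell. This gave 276 fibroblasts (1744814 UMIs) and 585 epithelial cells (5533325 UMIs) in Ptger4-ON, and 360 fibroblasts (1837217 UMIs) and 1199 epithelial cells (7604875 UMIs) in Ptger4-OFF. The median depth lay between 4161 and 4879.5 UMIs per cell in the 4 sets, and no cell barcode was shared between the libraries. The wider marker lists include the genes of the rule, so a part of their contrast between the classes follows from the rule. Summed over 12 fibroblast markers the level was 34777 and 34334 CPM (UMIs scaled to a total of 1000000 in the class) in the fibroblasts of Ptger4-ON and Ptger4-OFF, and 109 and 115 CPM in the epithelial cells. Fibroblast markers outside the rule stood in epithelial cells at 0.386% and 0.395% of their level in fibroblasts. Epithelial markers outside the rule stood in fibroblasts at 1.48% and 2.35% of their level in epithelial cells. By these markers, UMIs of another class that stray between droplets were few. Of the 8 leukocyte markers in the tables, 5 (Ptprc, Cd52, Laptm5, Cd3e and Cd79a) were at 0 in fibroblasts, and the list summed to 17.8 CPM in Ptger4-ON and 13.1 CPM in Ptger4-OFF. Other lists differed in fibroblasts between the libraries: 10 enterocyte markers summed to 18.3 and 101 CPM, 10 epithelial markers to 161 and 224 CPM, while pericyte markers, 4 in the tables, summed to 29.2 and 7.08 CPM. Their part in the results on fibroblasts was not tested.

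In fibroblasts the interferon-stimulated genes were higher in Ptger4-OFF across nearly the whole set. Summed over the 41 genes the level was 2725 CPM (4755 UMIs) in Ptger4-ON and 4194 CPM (7705 UMIs) in Ptger4-OFF, a ratio of 1.54 (95% interval 1.48 to 1.60). Of the 37 members with at least 20 UMIs over both libraries, 36 had a ratio above 1 and 1, Oas1a, had a ratio below 1. A gene was counted as past the fold when the ratio was at least 1.5 in either direction and the interval left out 1. By this rule 19 members were higher in Ptger4-OFF (51.4% of 37) and 0 were lower, against 3.37% higher and 3.58% lower among 9759 genes. The median log2 ratio was 0.69 for the 37 members and 0.015 for those 9759 genes. The 4 members outside the 37 (Oasl1, Mx2, Dhx58 and Cmpk2) were too sparse for a ratio to be read from. Since 4 abundant genes (Ifitm2, Ifitm3, Bst2 and Ifi27) held most of these UMIs, the sum was also taken without them: it was 645 CPM in Ptger4-ON and 1137 CPM in Ptger4-OFF, a ratio of 1.76 (1.64 to 1.90). In a bulk sum of cells, more expressing cells and more RNA per cell cannot be told apart, and the per-cell values are given below.

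**Figure D1:**
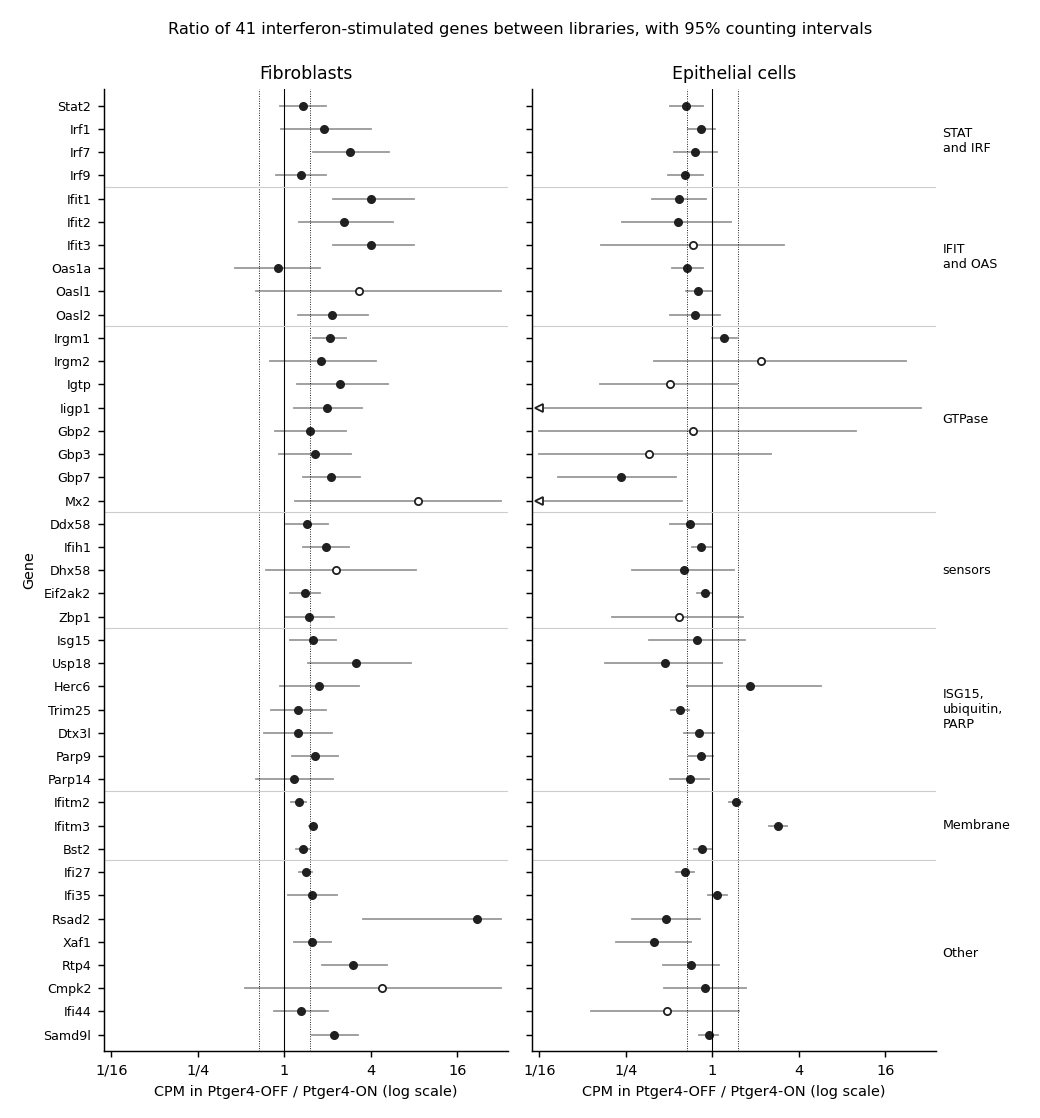
Ratio of CPM in Ptger4-OFF to CPM in Ptger4-ON (log axis) for each of the 41 genes in fibroblasts (left) and epithelial cells (right). Points are ratios and bars are 95% counting intervals, drawn to the edge of the range where they run past 1/16 or 32; open symbols are genes with under 20 UMIs, arrowheads are genes with 0 UMIs in Ptger4-OFF, and dotted lines mark 1.5-fold. Of the filled points, 36 of 37 lie to the right of 1 in fibroblasts and 27 of 32 to the left of 1 in epithelial cells.

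Of the transcription factors of the response, 1 of 4 was past the fold in fibroblasts. Irf7, the factor that amplifies type I interferon production, had 16 UMIs (9.17 CPM) in Ptger4-ON and 48 UMIs (26.1 CPM) in Ptger4-OFF, a ratio of 2.85 (1.59 to 5.38). Stat2 and Irf9, parts of ISGF3, had smaller ratios. Stat2 had 52 and 74 UMIs, a ratio of 1.35 (0.935 to 1.97). Irf9 had 46 and 63 UMIs, a ratio of 1.30 (0.875 to 1.95). For both, the interval holds 1. Irf1, a factor induced by several cytokines, had 13 and 26 UMIs and an interval of 0.941 to 4.03. The 4 factors together stood at 72.8 CPM in Ptger4-ON and 115 CPM in Ptger4-OFF, a ratio of 1.58 (1.26 to 1.98). Irf7 overlaps Phrf1 and Irf9 overlaps Rnf31 in the annotation, so a part of their counts could belong to the neighbour.

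The IFIT and OAS genes, which bind or destroy foreign RNA, had the highest summed ratio of the groups. Their sum was 45.3 CPM (79 UMIs) in Ptger4-ON fibroblasts and 115 CPM (211 UMIs) in Ptger4-OFF fibroblasts, a ratio of 2.54 (1.95 to 3.33). Ifit1 encodes a protein that binds RNA ends that lack the host cap. Ifit1 and Ifit3 each had 13 UMIs in Ptger4-ON and 55 in Ptger4-OFF, a ratio of 4.02 (2.17 to 8.02). Ifit2, of the same family, had 11 and 30 UMIs, a ratio of 2.59 (1.26 to 5.73). Oas1a belongs to the OAS family, whose enzymes make the activator of RNase L, and Oasl1 and Oasl2 are OAS-like. Oasl2 had 20 and 45 UMIs, a ratio of 2.14 (1.24 to 3.82). Oas1a went the other way in value, with 20 and 19 UMIs and a ratio of 0.902 (0.456 to 1.78), an interval with values on both sides of 1. Ifit3 and Oas1a have near-identical copies in the mouse genome, so their counts are uncertain between copies. A small number of cells carried much of this signal: 1 Ptger4-OFF fibroblast of 9391 UMIs held 41 of the 211 IFIT and OAS UMIs. It also held the most UMIs of the whole set in Ptger4-OFF. Without the fibroblast with the most member UMIs in each library, the ratio of the IFIT and OAS genes was 2.13.

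The GTPases, which attack the vacuoles of intracellular pathogens, were 2.0 times higher as a group. Their sum was 117 CPM (205 UMIs) in Ptger4-ON fibroblasts and 235 CPM (432 UMIs) in Ptger4-OFF fibroblasts, a ratio of 2.0 (1.69 to 2.37). Irgm1, a regulator of the family, had 87 UMIs in Ptger4-ON and 189 in Ptger4-OFF, a ratio of 2.06 (1.59 to 2.69). Its relative Igtp had 12 and 31 UMIs, a ratio of 2.45 (1.23 to 5.25), and the effector Iigp1 had 22 and 46 UMIs, a ratio of 1.99 (1.17 to 3.47). Of the guanylate-binding proteins, Gbp7 had 30 and 67 UMIs, a ratio of 2.12 (1.36 to 3.38). Gbp2 (22 and 35 UMIs), Gbp3 (21 and 36 UMIs) and Irgm2 (10 and 19 UMIs) had ratios of 1.51, 1.63 and 1.80 with intervals that hold 1. Mx2 had 1 UMI and 9 UMIs, under the minimum. With every cell given equal weight, whatever its depth, the ratio of the group was 1.54, below the pooled value.

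The sensors of foreign RNA and DNA stood at 159 CPM in Ptger4-ON fibroblasts and 243 CPM in Ptger4-OFF fibroblasts, a ratio of 1.53 (1.31 to 1.78). Ifih1, which encodes MDA5, a detector of long double-stranded RNA, had 45 and 92 UMIs, a ratio of 1.94 (1.35 to 2.84). Ddx58, which encodes the RNA-end sensor RIG-I, had 62 and 94 UMIs, a ratio of 1.44 (1.03 to 2.02). Eif2ak2, which encodes PKR, the kinase that halts translation, had 118 and 174 UMIs, a ratio of 1.40 (1.10 to 1.78). Zbp1, a sensor of Z-form nucleic acids, had 47 and 74 UMIs, a ratio of 1.495 (1.02 to 2.20), just short of 1.5. The intervals of these 4 genes lay above 1, and that of Ifih1 alone went with a ratio past the fold.

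Isg15 encodes a ubiquitin-like protein that is attached to other proteins, and Usp18 the enzyme that removes it and also damps the type I receptor. Isg15 had 50 UMIs in Ptger4-ON fibroblasts and 83 in Ptger4-OFF fibroblasts, a ratio of 1.58 (1.10 to 2.29). Usp18 had 9 and 30 UMIs, a ratio of 3.17 (1.47 to 7.58). Parp9, an ADP-ribosyltransferase, had 49 and 84 UMIs, a ratio of 1.63 (1.13 to 2.37), and its partner Dtx3l, which overlaps it on the opposite strand, had 26 and 34 UMIs (0.724 to 2.16). Herc6, Trim25 and Parp14, 2 ligases and a further ADP-ribosyltransferase, had ratios of 1.73, 1.24 and 1.18 with intervals that hold 1.

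The membrane proteins gave most of the UMIs of the set. Ifitm3, which blocks the entry of enveloped viruses, had 1975 UMIs (1132 CPM) in Ptger4-ON fibroblasts and 3275 UMIs (1783 CPM) in Ptger4-OFF fibroblasts, a ratio of 1.57 (1.49 to 1.67). Ifitm2 had 494 and 655 UMIs, a ratio of 1.26 (1.12 to 1.42). Bst2, which encodes tetherin, had 557 and 791 UMIs, a ratio of 1.35 (1.21 to 1.51). For all 3 the interval lay above 1. The Ifitm genes are close copies of each other, so the split of reads between them is uncertain. Of the remaining genes, Rsad2, which encodes the antiviral enzyme viperin, had 1 UMI in Ptger4-ON and 23 in Ptger4-OFF, a ratio of 21.8 with a very wide interval (3.55 to 900). Rtp4 had 21 and 67 UMIs, a ratio of 3.03 (1.83 to 5.21), and Samd9l, an inhibitor of translation, had 44 and 103 UMIs, a ratio of 2.22 (1.55 to 3.24). Xaf1, Ifi35 and Ifi27 had ratios of 1.57, 1.55 and 1.41, with intervals above 1, and Ifi44 had 40 and 55 UMIs (0.853 to 2.01). Rtp4 lies over Masp1 on the opposite strand.

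In the epithelial cells as a whole the same genes were mostly lower in Ptger4-OFF. Of the 32 members with at least 20 UMIs, 5 had a ratio above 1 and 27 a ratio below 1. The median log2 ratio was -0.40, against -0.037 over 11618 genes. By the same rule 8 members were lower (Stat2, Irf9, Ifit1, Gbp7, Trim25, Ifi27, Rsad2 and Xaf1; 25.0% of 32), where 8.5% of all measured genes were, and 1 was higher, where 5.37% were. With TMM scaling by edgeR the count of lower members was 5 of 32, where 7.51% of all genes were. That 1 gene was Ifitm3, with 229 UMIs (41.4 CPM) in Ptger4-ON and 900 UMIs (118 CPM) in Ptger4-OFF, a ratio of 2.86 (2.47 to 3.32). The sum of the set was 945 CPM in Ptger4-ON and 902 CPM in Ptger4-OFF, a ratio of 0.955 (0.921 to 0.990). The STAT and IRF genes had a ratio of 0.735 (0.646 to 0.836), the IFIT and OAS genes 0.721 (0.632 to 0.823) and the GTPases 1.02 (0.846 to 1.22). Trim25, the ligase that activates RIG-I, had 404 and 330 UMIs, a ratio of 0.594 (0.512 to 0.689). Ifi27 had 392 and 347 UMIs, a ratio of 0.644 (0.556 to 0.746). For 9 of the 29 members measured in both classes (31.0%), the interval lay above 1 in fibroblasts and below 1 in epithelial cells, where 1.38% of 8960 genes did so.

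The mix of epithelial states differed between the libraries, and the class values differed with it. The cells were clustered with the members left out of the genes that define clusters, and each cluster is called here by its leading genes. The cluster led by Clu and Msln, in which 3 of the 10 leading genes were fetal-like markers, held 211 of the 585 epithelial cells in Ptger4-ON and 92 of the 1199 in Ptger4-OFF. Inside it the pooled level of the set was higher in Ptger4-OFF. The sum of the set was 1074 CPM in Ptger4-ON and 1255 CPM in Ptger4-OFF, a ratio of 1.17 (1.09 to 1.25). Per cell the difference was small beside the spread: thinned to 1000 UMIs at random, the mean was 1.13 in Ptger4-ON and 1.58 in Ptger4-OFF, but thinned to 500 UMIs it was 0.626 and 0.522. Averaged over all possible draws the means were 1.196 and 1.43 at 1000 UMIs and 0.609 and 0.722 at 500 UMIs. Of 27 measured members 19 had a ratio above 1, and 4 were past the fold upward (Oas1a, Oasl1, Ifitm3 and Rtp4; 3.85% of all measured genes in this cluster were). Oasl1, which restrains Irf7 production, had 126 UMIs (47.8 CPM) and 95 UMIs (88.5 CPM), a ratio of 1.85 (1.41 to 2.44). Single cells weighed on that ratio: a Ptger4-OFF cell of 8328 UMIs held 30 of the 95. A Ptger4-ON cell of 8112 UMIs held 15 of the 126. Trim25 had 264 and 110 UMIs, a ratio of 1.02 (0.813 to 1.28), and Ifi27 had a ratio of 1.2 (0.966 to 1.48). In the epithelial cells outside the Clu and Msln cluster most members still had lower values in Ptger4-OFF: 18 of 26 had a ratio below 1, with a median log2 ratio of -0.28. Of these, 2 were lower past the fold, against 4.67% of all genes measured there, and the ratio of the sum, in which Ifitm2 and Ifitm3 weigh heavily, was 1.02.

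Among epithelial cells, the IFIT and OAS genes reached their highest levels in 2 clusters, and single cells weighed on both. In the Clu and Msln cluster they stood at 106 CPM (280 UMIs) in Ptger4-ON and 179 CPM (192 UMIs) in Ptger4-OFF, a ratio of 1.69 (1.40 to 2.03). Without the highest cell of each library the ratio was 1.51 (1.23 to 1.85). In a single random draw of 1000 UMIs per cell, a UMI of the group was found in 13.6% (9.09 to 19.3) and 11% (5.4 to 19.3) of its cells. Averaged over all draws the shares were 12.7% and 15.6%, so the order of the libraries differed between the single draw and the average. In the cluster led by the enterocyte markers Fabp1 and Apoa4 the group stood at 399 CPM in the 24 cells of Ptger4-ON and at 146 CPM in the 111 cells of Ptger4-OFF, a ratio of 0.365 (0.275 to 0.487). A single Ptger4-ON barcode of 92081 UMIs held 55 of the 87 UMIs in Ptger4-ON. Without the highest cell of each library the levels were 254 and 129 CPM, a ratio of 0.508 (0.340 to 0.781). Thinned, a UMI of the group was found in 2 of 22 cells (9.09%, 1.12 to 29.2) in Ptger4-ON and in 13 of 107 (12.1%, 6.63 to 19.9) in Ptger4-OFF, and averaged over all draws in 22.2% and 12.5%. In this enterocyte-like cluster 7 of 18 measured members were lower past the fold, against 7.6% of all genes measured there. Without the cell with the most member UMIs in each library, which in Ptger4-ON is that barcode of 92081 UMIs, 3 of 17 (Oasl1, Eif2ak2 and Trim25) were lower, against 6.06% of genes. The count of higher members was then 1, against 5.36% of genes. In the cycling cells led by Nusap1 and Ube2c the IFIT and OAS genes stood at 18.5 and 20.7 CPM.

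**Figure D2:**
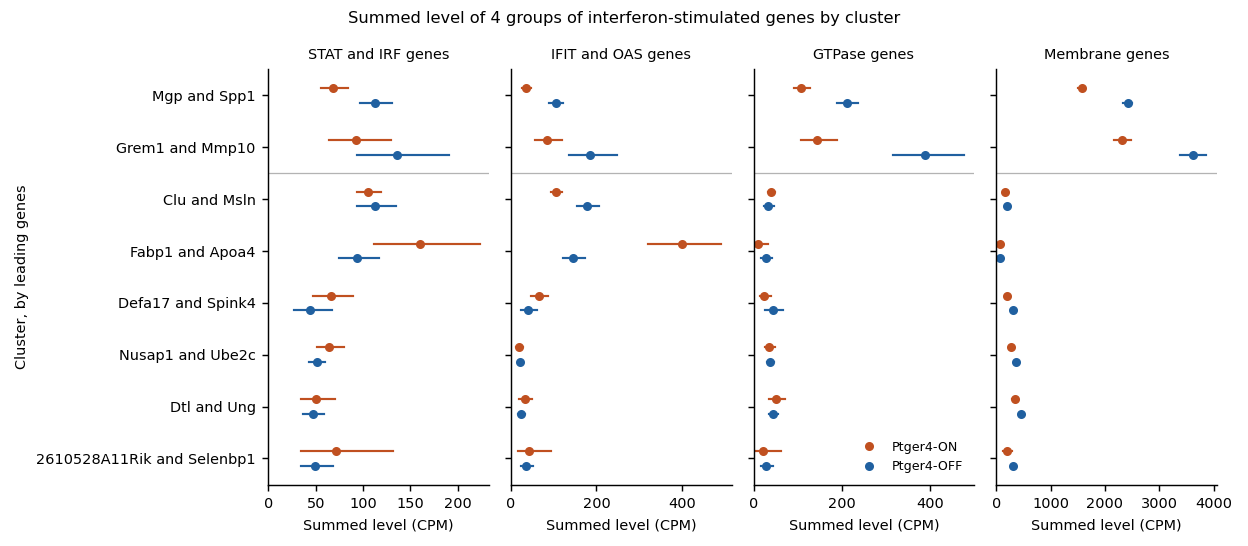
Summed level (CPM) of the STAT and IRF, IFIT and OAS, GTPase and membrane genes in 8 clusters, called by their leading genes, in Ptger4-ON and Ptger4-OFF; bars are 95% Poisson counting intervals and the grey line parts the 2 fibroblast clusters from the 6 epithelial ones. In the 2 fibroblast clusters every Ptger4-OFF point lies to the right of its Ptger4-ON point, and the IFIT and OAS genes are highest in the Fabp1 and Apoa4 cells of Ptger4-ON, where 1 cell held 55 of 87 UMIs.

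Ifitm3 was the member whose epithelial direction was upward in most states. It had 46 UMIs (37 CPM) in Ptger4-ON and 375 (134 CPM) in Ptger4-OFF in the Nusap1 and Ube2c cells, a ratio of 3.62 (2.66 to 5.03). In the Paneth- and goblet-like cells led by Defa17 and Spink4 it had 15 and 52 UMIs, a ratio of 4.68 (2.6 to 8.96). There a single Ptger4-OFF cell held 39 of the 146 UMIs of the membrane genes. Without the cell with the most member UMIs in each library, Ifitm3 was no longer past the fold in that cluster. In the cells led by Dtl and Ung it had 59 and 331 UMIs, a ratio of 2.22 (1.68 to 2.97). In the Clu and Msln cells the ratio was 1.76 (1.27 to 2.41). In the enterocyte-like cells it had 0 and 4 UMIs. Fibroblasts held far more of it, at 1132 and 1783 CPM, and its level in the Clu and Msln cells was 37.1 CPM in Ptger4-ON and 65.2 CPM in Ptger4-OFF. Whether RNA from fibroblasts added to its epithelial UMIs was not tested; the stray share of fibroblast markers was 0.386% in Ptger4-ON and 0.395% in Ptger4-OFF.

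Both fibroblast clusters showed the higher level in Ptger4-OFF. In the larger one, led by Mgp and Spp1 (213 and 303 cells), the sum of the set was 2500 CPM in Ptger4-ON and 3978 CPM in Ptger4-OFF, a ratio of 1.59 (1.53 to 1.66). There 35 of 37 measured members had a ratio above 1 and 18 were past the fold upward, against 3.09% of all measured genes. In the cells led by Grem1 and Mmp10, a smaller cluster of 49 and 52 cells, the ratio was 1.62 (1.5 to 1.75), 20 of 20 measured members had a ratio above 1 and 7 were past the fold, against 3.75% of genes. The clusters differed in single genes. Ifit1 had 3 UMIs in Ptger4-ON and 43 in Ptger4-OFF in the Mgp and Spp1 cells, a ratio of 12.3 (3.94 to 62.0), and 10 and 12 UMIs in the Grem1 and Mmp10 cells, a ratio of 1.81 (0.718 to 4.68). Isg15 had 15 and 48 UMIs in the former, a ratio of 2.75 (1.51 to 5.29), and 35 and 35 in the latter, a ratio of 1.51 (0.918 to 2.49). These intervals overlap, and the difference between the clusters was not tested. The GTPases were 108 and 212 CPM in the Mgp and Spp1 cells and 144 and 390 CPM in the Grem1 and Mmp10 cells.

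Per fibroblast, the distribution of the set lay higher in Ptger4-OFF. Each cell was thinned at random to 1000 UMIs so that depth was equal, which kept 254 of 276 fibroblasts in Ptger4-ON and 349 of 360 in Ptger4-OFF. The median cell then held 2 member UMIs in Ptger4-ON and 4 in Ptger4-OFF, the 90th percentile was 6 and 7, and the highest cell held 13 and 19. Cells with at least 5 member UMIs made up 18.5% (exact Clopper-Pearson interval 13.9 to 23.8) of fibroblasts in Ptger4-ON and 39.0% (33.8 to 44.3) in Ptger4-OFF. Averaged over all draws they made up 17.2% and 36.8%, and at full depth 73.6% and 87.2%. The 10% of cells with the most held 28.4% and 24.9% of the member UMIs. Without Ifitm2, Ifitm3, Bst2 and Ifi27, a UMI of the set was found in 46.1% (39.8 to 52.4) and 53.9% (48.5 to 59.2) of fibroblasts, and the top 10% of cells held 44.8% and 43.9% of the UMIs. The epithelial cells showed no such difference for the whole set. At least 5 member UMIs were held by 1.32% (0.531 to 2.69) in Ptger4-ON and 1.13% (0.602 to 1.92) in Ptger4-OFF. Any member UMI was held by 56.0% (51.7 to 60.3) and 57.0% (54.1 to 59.9), and the mean was 0.930 and 0.887 UMIs. Averaged over all draws, the shares were 1.44% and 0.931% with at least 5, and 57.1% and 54.3% with any. Without the 4 abundant genes the epithelial shares with any UMI were 45.7% (41.4 to 50.02) and 38.9% (36.1 to 41.8).

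**Figure D3:**
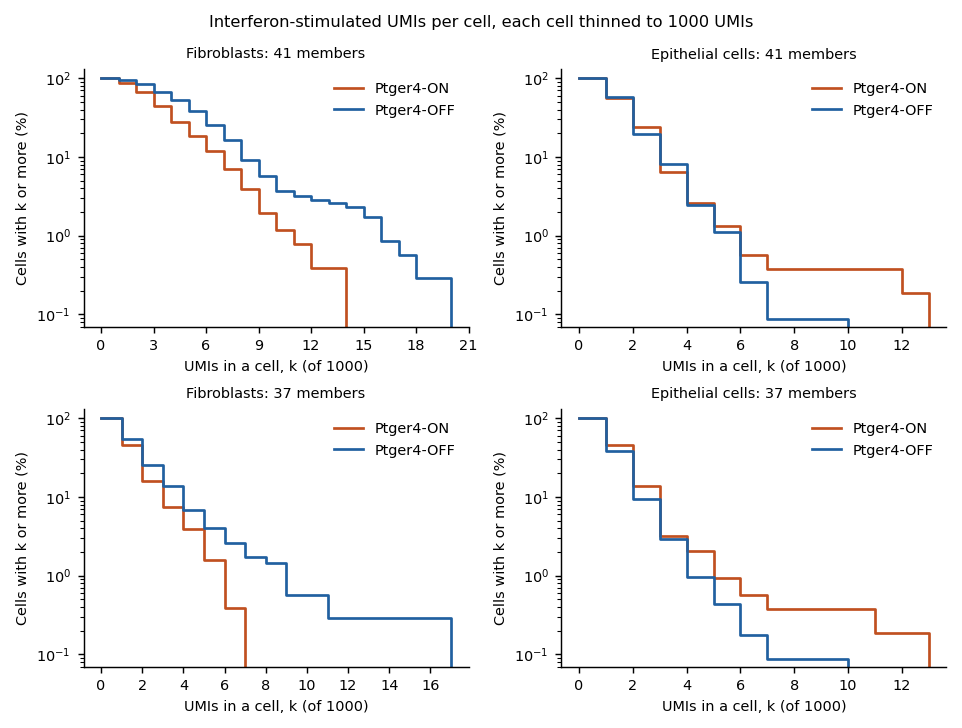
Share of cells (%, log axis) with k or more UMIs of the set after thinning each cell to 1000 UMIs, for 41 members (top) and for 37 members without Ifitm2, Ifitm3, Bst2 and Ifi27 (bottom), in fibroblasts (left) and epithelial cells (right). In fibroblasts the Ptger4-OFF line lies above the Ptger4-ON line and reaches 19 UMIs against 13, while the epithelial lines for 41 members run close together up to 5 UMIs and those for 37 members lie lower in Ptger4-OFF.

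The rarer groups sat in few cells. After thinning, an IFIT or OAS UMI was found in 3.54% (1.63 to 6.62) of Ptger4-ON fibroblasts and 7.16% (4.69 to 10.4) of Ptger4-OFF fibroblasts, and the variance over the mean was 1.16 and 2.01, where 1 is the value for molecules drawn at random. In epithelial cells the shares were 6.95% (4.94 to 9.46) and 3.12% (2.20 to 4.30), with variance over mean of 2.11 and 2.18. Single cells weighed on these variances: 1 epithelial cell in each library held 7 such UMIs and all others held 3 or fewer. In Ptger4-OFF fibroblasts 1 cell held 5 and all others 3 or fewer. The values without these cells are not given. A GTPase UMI was found in 14.96% (10.8 to 19.95) and 18.1% (14.2 to 22.5) of fibroblasts and a STAT or IRF UMI in 8.27% (5.19 to 12.4) and 9.46% (6.60 to 13.0). These fibroblast intervals overlap within each of the 3 groups. The variance over the mean in fibroblasts was 0.989 and 1.41 for the GTPases and 0.921 and 1.02 for the STAT and IRF genes. In epithelial cells it was 0.964 and 0.991 for the GTPases and 0.991 and 1.03 for the STAT and IRF genes. Averaged over all draws, the fibroblast shares were 3.82% and 8.03% for the IFIT and OAS genes, 11.05% and 17.3% for the GTPases and 8.6% and 10.04% for the STAT and IRF genes. The epithelial shares of the IFIT and OAS genes were then 7.12% and 4.14%. At full depth an IFIT or OAS UMI was found in 17.4% and 23.1% of fibroblasts and in 26.0% and 14.8% of epithelial cells, and a GTPase UMI in 38.4% and 48.9% of fibroblasts. Gene by gene, 9 of 34 members in Ptger4-ON fibroblasts (26.5%) and 10 of 37 in Ptger4-OFF fibroblasts (27.0%) had a variance over 1.2 times the mean, against 13.0% and 9.30% of all genes. Isg15, Bst2, Iigp1, Ifitm3 and Samd9l were among them in both libraries. Across Ptger4-ON fibroblasts 17 of 21 pairs of groups had a Pearson r above 0, with a median of 0.06. Across Ptger4-OFF fibroblasts 20 of 21 did, with a median of 0.19 (0.13 without the single highest cell) and the highest, 0.49, between the IFIT and OAS genes and the Isg15, ubiquitin and PARP genes. That r was 0.26 without that cell, and 0.12 in Ptger4-ON. The cells of a library share 1 pool, and correlations of this size in sparse counts are weak.

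Single cells stood out in both classes. The Ptger4-OFF fibroblast of 9391 UMIs named above lay in the Mgp and Spp1 cluster and held 115 UMIs of the 37 members other than Ifitm2, Ifitm3, Bst2 and Ifi27, among them 15 of Ifit3, 12 of Ifit1, 11 of Irgm1 and 11 of Iigp1. The next fibroblast held 14 IFIT and OAS UMIs, and the highest in Ptger4-ON held 7. In the epithelium the Ptger4-ON barcode of 92081 UMIs held 176 such UMIs, among them 19 of Ifit1, 19 of Oasl1 and 10 of Oas1a. A Ptger4-OFF cell of the Clu and Msln cluster with 8328 UMIs held 51, of which 30 were of Oasl1 and 0 of Ifit1, Ifit2 and Ifit3. The next in Ptger4-ON, with 8112 UMIs, held 60, of which 15 were of Oasl1 and 3 of Ifit1.

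The 2 classes also differed in which members they used within each library. Of 40 members with enough UMIs, 19 were higher in fibroblasts in both libraries by the same rule (47.5%), where 19.8% of 12686 genes were. Another 4, Irf1, Oas1a, Oasl1 and Trim25, were higher in epithelial cells in both (10.0%), where 26.4% of genes were. The 19 included 7 of 7 measured GTPases and 3 of 3 membrane genes. Gbp2 was 34.9 times higher in fibroblasts in Ptger4-ON (8.58 to 306) and 72.4 times higher in Ptger4-OFF (18.6 to 622), and Ifitm3 was 27.4 and 15.1 times higher. Oasl1 was 30.4 times higher in epithelial cells in Ptger4-ON and 7.28 times in Ptger4-OFF. For Rsad2 the side differed between the libraries, with intervals that left out 1 in both: its ratio of fibroblast to epithelial CPM was 0.083 (0.0021 to 0.494, on 1 fibroblast UMI) in Ptger4-ON and 3.81 (2.07 to 6.99) in Ptger4-OFF. For 35 of the 39 genes with UMIs in all 4 sets, the ratio of fibroblast to epithelial CPM was larger in Ptger4-OFF than in Ptger4-ON. This count restates the ratios between the libraries given above for the 2 classes and is not a separate result. The share of all genes for which this held is not given here.

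**Figure D4:**
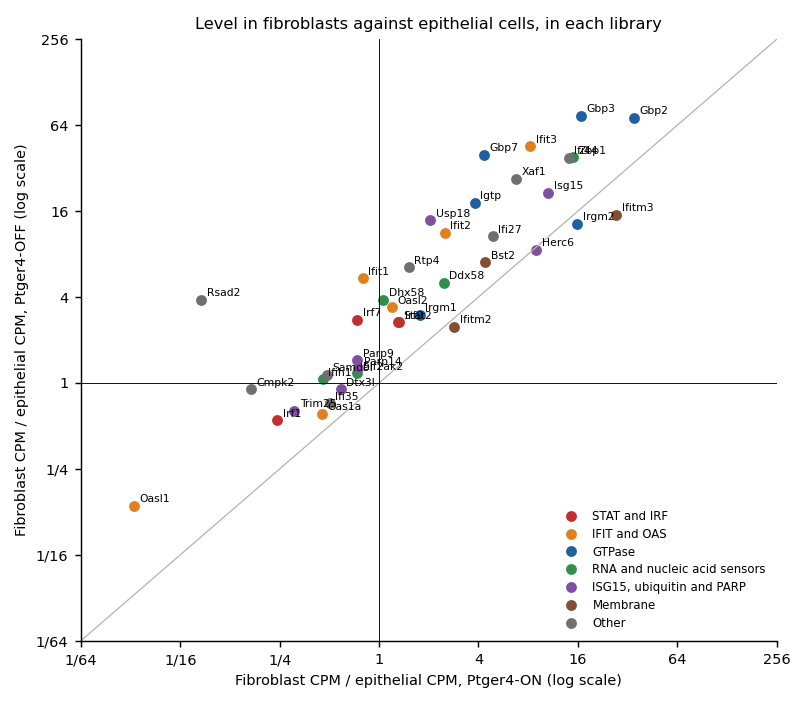
Ratio of CPM in fibroblasts to CPM in epithelial cells (log axes) in Ptger4-ON (horizontal) and Ptger4-OFF (vertical) for 39 genes, coloured by group; the grey line marks equal ratios. Of these genes 35 lie above the line, the GTPases lie in the upper right with Gbp2 at 34.9 and 72.4, and Oasl1 lies at the lower left.

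Of 40 genes listed for interferon signalling, 28 were in the tables, and 23 were measured in fibroblasts. Of these Socs3 was the 1 gene lower past the fold, near the 3.58% of all genes. Socs3, a feedback inhibitor of cytokine receptors, had 64 and 32 UMIs in fibroblasts, a ratio of 0.475 (0.301 to 0.737). Of 13 interferon genes listed, 1 had a row in the tables: Ifnz, with 3 and 3 UMIs in fibroblasts. The receptor chains Ifnar1 (103 and 114 UMIs) and Ifnar2 (256 and 279 UMIs) had fibroblast ratios of 1.05 and 1.04. In epithelial cells 0 of 26 were higher and 3 lower past the fold (Ifnlr1, Tlr3 and Traf3), where 5.37% and 8.5% of all genes were, so the count of lower genes is near that share. Ifnlr1, the type III receptor chain, had 55 and 34 UMIs in epithelial cells, a ratio of 0.450 (0.284 to 0.702), and 0 UMIs in the fibroblasts of both libraries, which allows up to 3 UMIs in each. Of 63 further interferon-induced genes listed, 35 were measured in fibroblasts, of which 13 were higher and 0 lower past the fold, where 3.37% and 3.58% of all genes were. In epithelial cells 31 were measured, of which 0 were higher and 4 lower, where 5.37% and 8.5% of all genes were. Among them Ccl5, a chemokine, had 2 and 59 UMIs in fibroblasts, 58 of the 59 in a single cell, and Cxcl10 had 4 and 66, 37 of them in a single cell.

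Outside these lists, the genes whose level per cell went most closely with the summed members were taken by the lower Pearson r of the 2 libraries. In fibroblasts (276 and 360 cells, 8027 candidate genes) Plac8 led with r of 0.36 and 0.37, followed by Fth1 (0.35 and 0.34) and Cst3 (0.30 and 0.35). In epithelial cells (585 and 1199 cells) the leading genes were Tm4sf4 (0.28 and 0.22) and Msln (0.22 and 0.21), and 3 of the first 10 (Msln, Anxa10 and Ly6d) were also among the 10 leading genes of the Clu and Msln cluster. These values are descriptions over cells that share a library and differ in depth, with no test.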

How the data were processed

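Gene expression was measured by Drop-seq in 2 libraries, 1 per condition. The deposited tables hold UMI counts per gene and cell barcode (16955 gene rows and 908 barcodes in Ptger4-ON, 17217 and 1599 in Ptger4-OFF), with totals of 7408303 and 9490205 counts. Per the submitters' processing notes, reads were aligned to mm10 with STAR 2.6. Which tool counted the UMIs, with which annotation, is not given in the sources used here. Co-cultures were dissociated with trypsin and EDTA, per the labels' protocols.

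Barcodes needed 300 or more genes with a UMI and a mitochondrial share of 20% or less. After 6 and 4 doublets called by Scrublet were removed, there were 876 and 1560 cells. A total of 15 cells in Ptger4-ON and 1 in Ptger4-OFF tied on the class markers and were left out. Counts were summed per class or cluster and divided by the class total (CPM). The ratio of Ptger4-OFF to Ptger4-ON has an exact conditional binomial interval at 95%, and a gene needed 20 UMIs over both libraries. Medians are of log2 CPM ratios with 0.5 added to each count. Clusters were made with scanpy 1.11.5 (2000 variable genes without the members and the other interferon lists, 30 components, 15 neighbours, Leiden resolution 0.5). Gene positions came from GENCODE vM21, in which 17154 of 18309 symbols were found.

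The 41 members were given as a list. The members, the other lists and the tests were chosen with earlier results of these data known. Every member is accounted for. Those past the fold in fibroblasts are named with their counts there, except Xaf1 and Ifi35, for which only the ratio is given. Other genes are named from the fixed lists or as the 10 most like the members. The ratio and its interval were tested on simulated data. Alternatives are given in the closing section. Those on single clusters, on the highest cell of each gene or cluster and on the average over all draws of the thinning were chosen after seeing the data. Intervals cover counting error only, and reads of tagged molecules from 1 pool are not independent cultures. The result for 1 gene of the pathway list is not reported here.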

Additional observations from a re-analysis of the deposited data

Results flagged for a closer look

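For 9 members measured in both classes, the counting interval lay above 1 in fibroblasts and below 1 in epithelial cells. That is 31.0% of the 29 members measured in both, where 1.38% of 8960 genes did so. Each ratio is Ptger4-OFF over Ptger4-ON, and with 1 library per condition the difference between the classes was not tested.

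Ifit1 had a ratio of 4.02 in fibroblasts and 0.588 in epithelial cells. Rsad2 had 21.8 in fibroblasts and 0.479 in epithelial cells. Gbp7 had 2.12 in fibroblasts and 0.232 in epithelial cells, where it had 22 UMIs in Ptger4-ON and 7 in Ptger4-OFF. Xaf1 had 1.57 and 0.395, and Ifi27 had 1.41 and 0.644.

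The RNA sensors showed smaller differences. Ddx58 had a ratio of 1.44 in fibroblasts and 0.7003 in epithelial cells, Ifih1 had 1.94 and 0.834, and Eif2ak2 had 1.40 and 0.882. Bst2, which encodes tetherin, had 1.35 and 0.847.

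Inside the Clu and Msln cluster the ratio was 1.2 for Ifi27 (0.966 to 1.48) and 1.33 for Xaf1 (0.623 to 2.72), and both intervals hold 1. For Ifit1, 19 of the 52 epithelial UMIs in Ptger4-ON were in a single cell, the barcode of 92081 UMIs. That barcode also held the most member UMIs in Ptger4-ON. Without the cell with the most member UMIs in each library, the epithelial ratio of Ifit1 was 0.916. In Ptger4-OFF the cell left out was not chosen by its Ifit1 UMIs.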

How the results depend on the processing

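In fibroblasts, higher sums in Ptger4-OFF were found for the set and for the STAT and IRF, IFIT and OAS and GTPase genes under every alternative run on cell filters, doublets, class rule, deep or related barcodes, scaling, cell weights and single cells. The count of members higher past the fold was 19 and lay between 18 and 20 across these, where 3.05% to 3.54% of all genes were higher. When the cell with the most member UMIs was left out, 17 of the 18 were shared with the 19. With a minimum of 50 UMIs the count was 15 of 28, against 3.30% of genes. At 2-fold it was 12 of 37, against 1.25% of genes. With each cell given equal weight the fibroblast GTPase ratio was 1.54, and in epithelial cells the ratio was 0.895 for the set and 0.529 for the IFIT and OAS genes.

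The epithelial results depended on which epithelial cells were taken. Without the Clu and Msln cluster the ratio was 1.02 for the set and 1.01 for Rsad2. Of 26 members 2 were then lower past the fold, against 4.67% of genes, though 18 still had a ratio below 1 (median log2 -0.28). Inside that cluster the ratio was 1.17 for the set, 1.69 for the IFIT and OAS genes, 1.07 for the STAT and IRF genes and 0.843 for the GTPases. Of 27 members measured there, 4 were higher and 0 lower past the fold, against 3.85% and 4.62% of genes. Single genes there were Irf9 (1.06), Trim25 (1.02), Ifi27 (1.2) and Xaf1 (1.33). The epithelial count of lower members was 5 of 32 with TMM factors (edgeR 4.0.16), where 7.51% of all genes were lower. At 2-fold it was 3 of 32, where 3.96% of all genes were lower. The cause was not tested.

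Without thinning, the difference in the share of cells with a UMI (Ptger4-OFF minus Ptger4-ON) was 10.5 percentage points for the GTPases in fibroblasts, and -11.2, -2.93 and -11.6 for the IFIT and OAS, GTPase and STAT and IRF genes in epithelial cells. With thinning these were 3.09, -3.83, 0.841 and -1.2, and averaged over all draws of the thinning 6.25, -2.97, -0.148 and -2.46. TMM or median-of-ratios factors shifted all log2 ratios by -0.01 to 0.05. No paired analysis was possible because each condition has 1 library. Depth limits the genes with under 20 UMIs, for which no ratio was read.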

Other observations

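Outside the 41 genes, 63 further interferon-induced genes had been listed, of which 53 were in the tables. In fibroblasts 13 of 35 measured were higher past the fold in Ptger4-OFF, where 3.37% of all genes were. Gbp6, a guanylate-binding protein, had 18 UMIs in Ptger4-ON fibroblasts and 37 in Ptger4-OFF fibroblasts, a ratio of 1.95 (1.08 to 3.64). Trim30a had 83 and 148 UMIs, a ratio of 1.69 (1.29 to 2.24), and Slfn8 had 17 and 36 UMIs, a ratio of 2.01 (1.10 to 3.82). Psmb10, a subunit of the immunoproteasome, had 83 and 137 UMIs, a ratio of 1.57 (1.18 to 2.08). B2m, the light chain of class I antigen-presenting molecules, did not reach the fold in either class, with a ratio of 1.36 (1.29 to 1.43) in fibroblasts and 1.38 (1.33 to 1.44) in epithelial cells. Ifi27l2a had 2 and 24 UMIs in fibroblasts, 8 of the 24 in a single cell.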
